A study of Mus musculus with 2 samples.

Results

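The genes of the major histocompatibility complex (MHC) that present antigen were measured in white fat from beneath the skin of mice (subcutaneous adipose tissue). The set comprised every gene whose symbol starts with H2-, the mouse MHC prefix, together with Cd74, B2m, Tap1, Tap2, Tapbp, Ciita, Nlrc5 and Cd1d1. It held 53 of the 43346 annotated genes in the deposited tables. The members were 2 classical class I heavy chains, 4 genes of the class I partner chain and peptide loading, and 31 nonclassical and other class I genes. The others were 7 classical class II genes, 6 class II loading genes, 2 transactivators and 1 gene of another function. H2-Pa, H2-Pb and H2-Ea-ps, in the classical class II group, are annotated as pseudogenes.

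RNA came from C57BL/6J littermates of pooled sex at 8 weeks of age, with no treatment or altered gene named in the labels and the health state given as unknown. Per the labels, ribosomal RNA was depleted, RNA longer than 200 nt with polyA tails was kept, and stranded read pairs of 76 nt were sequenced. The 2 libraries form a single group: they are numbered as biological replicates 1 and 2, carry separate tissue sample records and share a donor record. No contrast between conditions exists, so no p-values are given, and the spread between the libraries may be technical in part.

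Class I molecules are built from a heavy chain and the invariant chain B2m. Nearly all nucleated cells carry them and show peptides from the cytosol to CD8+ T cells. Class II molecules are pairs of alpha and beta chains found mainly on dendritic cells, B cells and macrophages, where they show peptides from endosomes to CD4+ T cells. Class II assembly needs the invariant chain Cd74. The coactivators Nlrc5 and Ciita drive class I and class II genes respectively, through promoter elements that the 2 classes share.

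Depth was 53601218 and 57500971 estimated counts on annotated genes in replicates 1 and 2. TPM, the unit of level used here, gives transcript abundance relative to transcript length and library size. A gene counts as detected here when its TPM reached 1 in both libraries. All 10 white adipocyte markers were detected, with summed TPM of 19746 and 42543, so the tissue label and its markers match. The libraries stood apart in other markers. Epithelial markers summed to 849 TPM in replicate 1 against 15.9 in replicate 2, with all 11 over 2-fold higher in replicate 1, while all 10 adipocyte markers were over 2-fold higher in replicate 2 on TMM-scaled counts, where 12.5% and 10.6% of all genes with enough counts were. TMM factors, which centre the typical gene, were 1.20 and 0.837. Scaling by total count or by spike-in RNA instead lowered every log2 ratio of replicate 2 over replicate 1 by 0.51 or 0.46.

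Class I genes are close copies of each other, which bears on how reads can be told apart. The coding sequences of H2-K1 and H2-D1 (GENCODE M21, GRCm38) were identical at 91.5% of aligned bases, those of H2-Q6 and H2-Q7 at 94.1%, and those of the class II loading genes H2-DMb1 and H2-DMb2 at 95.9%. The lines below show a 60-base coding stretch of H2-K1 and H2-D1, with the aligned stretch of 5 nonclassical genes. It is the stretch in which H2-K1 and H2-D1 differed most among those examined, which had to align without gaps in all 7 genes. All 7 stretches lie within exon 3, which encodes a part of the peptide-binding groove. Capitals mark bases that differ from H2-K1, and each is written 5′ to 3′ on the gene's strand.
H2-K1 (chr17:33999329-33999388, minus strand): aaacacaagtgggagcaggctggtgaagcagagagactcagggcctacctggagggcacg
H2-D1 (chr17:35263997-35264056, plus strand): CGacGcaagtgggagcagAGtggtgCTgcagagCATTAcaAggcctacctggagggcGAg
H2-Q4 (chr17:35380519-35380578, plus strand): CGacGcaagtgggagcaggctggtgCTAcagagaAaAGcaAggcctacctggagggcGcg
H2-Q6 (chr17:35425729-35425788, plus strand): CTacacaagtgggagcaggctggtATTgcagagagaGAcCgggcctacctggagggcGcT
H2-Q7 (chr17:35440067-35440126, plus strand): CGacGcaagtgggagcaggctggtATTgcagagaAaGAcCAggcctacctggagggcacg
H2-Q10 (chr17:35470984-35471043, plus strand): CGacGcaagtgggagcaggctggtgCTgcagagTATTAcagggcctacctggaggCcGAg
H2-T23 (chr17:36031696-36031755, minus strand): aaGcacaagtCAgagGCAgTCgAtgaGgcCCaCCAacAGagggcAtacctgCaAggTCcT
In this stretch H2-D1 differed from H2-K1 at 15 bases, H2-Q6 at 10 and H2-T23 at 23. H2-Q6 and H2-Q7 differed from each other at 6.

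How far such likeness left reads ambiguous was read from 2 measures. The first was the share of 76-nt windows of each gene's most used transcript that occur letter for letter in a transcript of another gene. Windows were taken from GENCODE M21 transcripts, whereas the reads had been counted with GENCODE M4, so the 2 measures rest on different annotations. Of the 30 detected members, 13 shared no such window and 9 shared over 10%. The largest share, 69.6%, belonged to H2-Ke6, whose windows recur in the gene model Gm20427. H2-DMb1 followed with 34.4% (H2-DMb2), H2-T22 with 27.2% (chiefly H2-T10), H2-DMb2 with 20.5% (chiefly H2-DMb1), H2-Q5 with 20.4% and H2-Q6 with 17.4% (both chiefly H2-Q7). The classical heavy chains shared little, 1.42% for H2-K1 and 6.81% for H2-D1. For windows of 216 nt, close to the mean fragment length, 26 of the 30 shared none.

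The second measure was the posterior SD of the count, the deposited tables' own spread for the division of ambiguous reads. All 13 members without a shared window had a posterior SD of 0 in both libraries. Among members with a posterior mean count of at least 100, the SD was 0 for 15 of 30 in replicate 1 and 14 of 29 (48.3%) in replicate 2, against 88.3% and 88.0% of all genes with that count. The largest values were those of H2-DMb2, at 1.73% and 2.27% of its count. No member's posterior SD exceeded the counting error of its own count, so for these members the division of reads added less to the spread than counting did, within the annotation that was used.

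**Figure D1:**
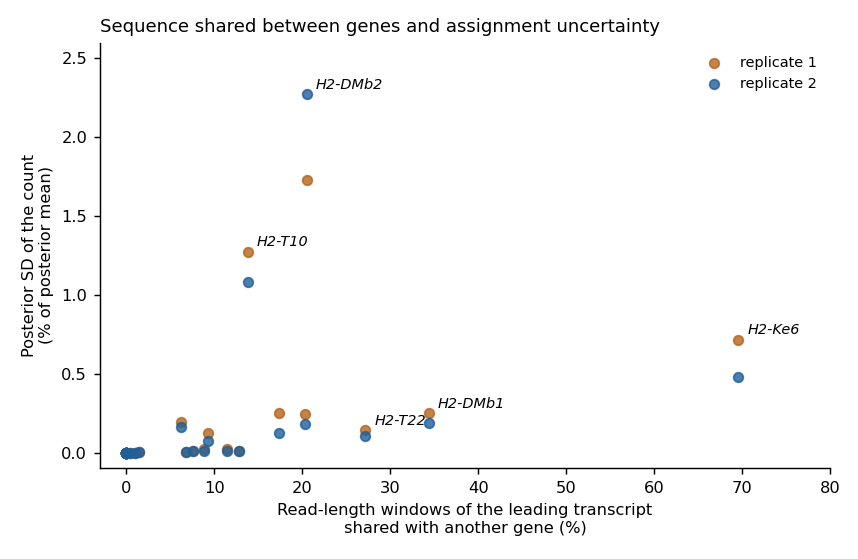
Share of read-length windows that another gene's transcripts hold (x axis, %) against the posterior SD of the count as a percent of the posterior mean (y axis, %), for the 30 detected members; orange is replicate 1 and blue is replicate 2. H2-DMb2 and H2-T10 lie above 1%, H2-Ke6 shares the most windows, and members without shared windows lie at 0.

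Of the 53 members, 30 were detected, 56.6%, against 29.4% of all annotated genes. Members took 0.737% of all TPM in replicate 1 and 0.939% in replicate 2. Class I genes with their partner and loading genes summed to 3930.0 and 7234 TPM in replicates 1 and 2, and class II chains with their loading genes to 3324 and 2068. The class I sum was thus 1.18 times the class II sum in replicate 1 and 3.50 times in replicate 2. TPM is per length, so these sums compare genes within a library.

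**Figure D2:**
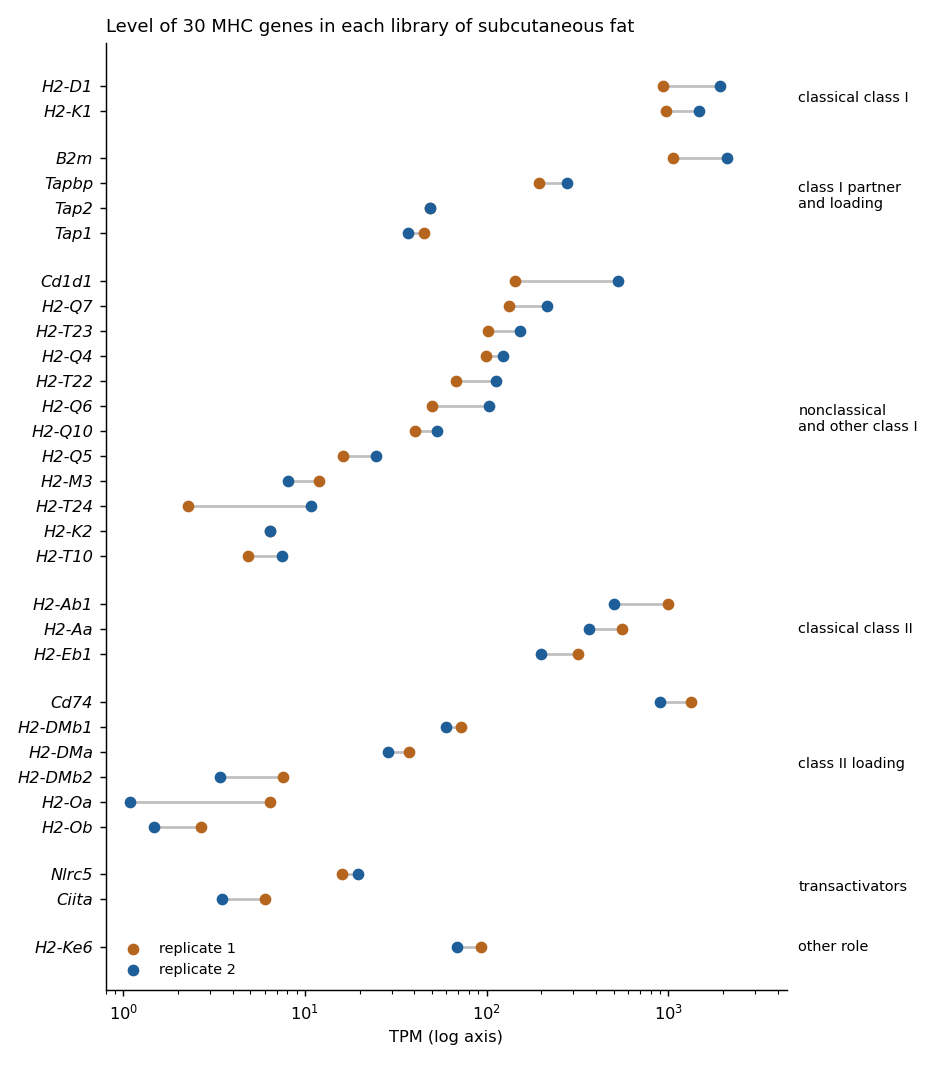
TPM on a log axis of the 30 detected members, grouped by role; orange points are replicate 1, blue points are replicate 2 and grey lines join them. Both classical heavy chains and B2m lie to the right in replicate 2, and every class II chain and class II loading gene lies to the right in replicate 1 on this unscaled TPM axis.

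Classical class I heavy chains and their partner were among the highest members and higher in replicate 2. H2-K1 (ENSMUSG00000061232.11, GRCm38 chromosome 17, 33996017 to 34000347, minus strand) stood at 967 TPM in replicate 1 and 1483 in replicate 2, a mean of 1225 ± 365 (SD, n = 2). H2-D1 (ENSMUSG00000073411.7, chromosome 17, 35262730 to 35267499) stood at 935 and 1935 TPM, a mean of 1435 ± 707. B2m (ENSMUSG00000060802.8, chromosome 2, 122147686 to 122153083) stood at 1059.6 and 2101 TPM, a mean of 1581 ± 737. All 3 were higher in replicate 2. On TMM-scaled counts the ratio of replicate 2 over replicate 1 was 2.41 for H2-K1 (exact 95% counting interval 2.39 to 2.44), 3.23 for H2-D1 (3.20 to 3.26) and 3.08 for B2m (3.04 to 3.13). A member is called over 2-fold apart here when that interval lies wholly beyond 2-fold and the mean scaled count is at least 100. All 3 genes met this, where 10.6% of all 13403 genes with such a count did so in that direction. The order of H2-K1 and H2-D1 by TPM was reversed between the libraries, with H2-D1 at 0.967 and 1.305 times H2-K1. With spike-in scaling the ratios of H2-D1 and B2m stayed above 2-fold and that of H2-K1 did not.

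The genes that load peptide on class I did not move with the heavy chains as a block. Tapbp, the tapasin that holds empty class I molecules at the peptide transporter, had 193 and 278 TPM. Its scaled ratio of 2.03 (1.98 to 2.07) straddled the 2-fold bound and was not called. The transporter subunits Tap1 and Tap2, which pump peptides into the endoplasmic reticulum, were steadier. Tap1 had 45.2 and 36.7 TPM, with a scaled ratio of 1.26 (1.21 to 1.31) that fell below 1 with total-count or spike-in scaling and in TPM. Tap2 had 48.8 and 48.7 TPM and a scaled ratio of 1.58 (1.52 to 1.64), which stayed above 1 with total-count and spike-in scaling while its TPM was level. Within a library Tapbp was 4.27 and 7.58 times Tap1.

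Of the nonclassical and other class I genes, 12 of 31 were detected, and 7 of these 12 were over 2-fold higher in replicate 2, against 10.6% of all genes. The highest was Cd1d1 (ENSMUSG00000028076.8, chromosome 3, 86995834 to 86999441, minus strand), which presents lipids to natural killer T cells. Cd1d1 had 144 TPM in replicate 1 and 529.9 in replicate 2, a mean of 337 ± 273 (SD, n = 2). Its scaled ratio was 5.64 (5.48 to 5.81), and it was over 2-fold with all 4 count scalings. Of its windows 11.5% recur in its close copy Cd1d2, which had 0.43 and 1.23 TPM.

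Some of the H2-Q genes encode Qa antigens. H2-Q7 and H2-Q6, which encode Qa-2 molecules, had 132 and 215 TPM and 49.9 and 103 TPM in replicates 1 and 2. Their scaled ratios were 2.86 (2.78 to 2.93) and 3.23 (3.10 to 3.36), both called. H2-Q4 had 98.6 and 124 TPM, and its ratio of 2.00 (1.94 to 2.07) was not called. H2-Q10, known as a class I chain secreted by the liver, had 40.2 and 53.2 TPM and a ratio of 2.01 (1.90 to 2.12), also not called. H2-Q5, annotated as a polymorphic pseudogene, had 16.1 and 24.8 TPM and a called ratio of 2.40 (2.16 to 2.67). In all, 3 of the 5 detected H2-Q genes were called, beside the same 10.6%. The H2-Q6 and H2-Q7 values depend on how reads common to both were divided, although H2-Q7 was 2.65 and 2.08 times H2-Q6 in the 2 libraries.

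The H2-T genes behaved alike in part. H2-T23 encodes Qa-1, which shows leader peptides of other class I chains to natural killer cell receptors. It had 102 and 152 TPM and a scaled ratio of 2.30 (2.22 to 2.38). H2-T22 and H2-T10 are known for encoding ligands of some gamma delta T cell receptors, although H2-T10 is annotated as a polymorphic pseudogene. H2-T22 had 67.5 and 112 TPM, a called ratio of 2.47 (2.38 to 2.57), while H2-T10 had 4.84 and 7.51 TPM and a ratio of 2.09 (1.85 to 2.35) that was not called. H2-T24 had 165 counts in replicate 1 against 926 in replicate 2, or 2.27 and 10.9 TPM. Its ratio of 7.47 (6.33 to 8.87) was the largest among the 30 members with at least 100 scaled counts on average. The ratio of H2-T22 to H2-T10 was 14.0 and 14.9 in the 2 libraries, with reads shared between these genes.

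Of the 14 H2-M genes a single one, H2-M3, was detected, and 9 had no count in either. H2-M3 presents peptides that begin with formylmethionine. It had 11.95 and 8.06 TPM and a scaled ratio of 1.05 (0.924 to 1.19), so it did not share the ratio of most class I genes, and it was lower in replicate 2 with total-count or spike-in scaling. H2-K2, a transcribed pseudogene, had 6.44 TPM in both libraries. H2-M9 had 24 and 96 counts and H2-T-ps 58.0 and 26.0. H2-Q2 had 74 counts in replicate 1 and 1 in replicate 2, and H2-M5 had 52 and 13. These 4 were under the mean scaled count of 100. H2-M2, H2-Bl, H2-M6-ps, H2-T3 and H2-Q1 had at most 12 counts in a library. H2-T3, known as an antigen of intestinal epithelium, had 4 and 0 counts.

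In total, 13 members had no count in either library: H2-M1, H2-M11, H2-M10.1 to H2-M10.6, H2-M10.5-ps1, H2-Q3, H2-Ea-ps, H2-Pb and H2-Pa. A floor of 3 counts allows them up to 0.0579 to 0.252 TPM in replicate 1 and 0.0494 to 0.218 TPM in replicate 2, depending on their length. H2-Ea-ps is the alpha chain of the class II molecule I-E, which C57BL/6 mice are known not to express.

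Class II chains were led by H2-Ab1 (ENSMUSG00000073421.5, chromosome 17, 34257689 to 34269419), the beta chain of the molecule I-A, with 992 TPM in replicate 1 and 501 in replicate 2. Its partner H2-Aa (ENSMUSG00000036594.10, chromosome 17, 34282744 to 34287823, minus strand) had 554 and 367 TPM. H2-Eb1, the beta chain of I-E, had 318 and 200.4 TPM although its alpha chain had no count, and H2-Eb2 had 14 and 8 counts. All 3 expressed chains were higher in replicate 1 by TPM. On TMM-scaled counts the ratios of replicate 2 over replicate 1 were 0.781 for H2-Ab1 (0.767 to 0.794), 1.03 for H2-Aa (1.01 to 1.05) and 0.981 for H2-Eb1 (0.953 to 1.01), none over 2-fold. With total-count or spike-in scaling all 3 were lower in replicate 2. H2-Ab1 was 1.79 and 1.37 times H2-Aa within a library, and H2-Aa was 1.74 and 1.83 times H2-Eb1.

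Among class II loading genes the invariant chain Cd74 (ENSMUSG00000024610.10) was the highest, with 1334 and 906 TPM and a scaled ratio of 1.07 (1.05 to 1.08), which was below 1 with total-count or spike-in scaling. Cd74 was 0.716 and 0.848 times the sum of H2-Aa, H2-Ab1 and H2-Eb1. H2-DMa and H2-DMb1 encode the DM exchanger that frees class II of the invariant chain remnant. H2-DMa had 37.3 and 28.5 TPM and H2-DMb1 72.0 and 59.8, with scaled ratios of 1.18 (1.10 to 1.26) and 1.23 (1.16 to 1.31) that were below 1 with total-count or spike-in scaling. H2-DMb2, another DM beta chain, had 7.53 and 3.39 TPM, and H2-DMb1 was 9.56 and 17.6 times as high.

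H2-Oa and H2-Ob encode the chains of DO, an inhibitor of DM found chiefly in B cells and some dendritic cells. H2-Oa had 215 counts in replicate 1 and 43 in replicate 2, or 6.42 and 1.09 TPM. It was 3.75 times as high in replicate 1 on the TMM scale (2.70 to 5.34) and was the only member called in that direction, where 12.5% of all genes tested were. H2-Ob had 222 and 127 counts and was 1.31 times as high in replicate 1 (1.05 to 1.65). The ratio of H2-Oa to H2-Ob was 2.39 in replicate 1 and 0.741 in replicate 2.

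The transactivators were low and both detected. Nlrc5 had 15.99 and 19.5 TPM, with a scaled ratio of 1.93 (1.83 to 2.03) that was not called. Ciita had 5.99 and 3.51 TPM and a ratio of 0.914 (0.834 to 1.00). Nlrc5 was 2.67 times Ciita in replicate 1 and 5.55 times in replicate 2, so this ratio differed between the libraries in the same direction as class I over class II. H2-Ke6, which lies in the MHC and encodes a steroid dehydrogenase rather than an antigen-presenting molecule, had 93.3 and 69.0 TPM, with most of its windows shared with Gm20427.

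Read by class, 10 of the 18 class I, partner and loading genes with enough counts were over 2-fold higher in replicate 2 and none was higher in replicate 1. Of the 9 class II and class II loading genes, 1 was over 2-fold higher in replicate 1 and none in replicate 2. Of all genes with enough counts, 10.6% were higher in replicate 2 and 12.5% in replicate 1. The class II calls were too few to be set apart from these shares. Both directions together, 11 of 30 members were called, against 23.1% of all genes. Over members averaging at least 10 scaled counts, the median log2 ratio was 1.13 for 22 class I genes, of which 19 were above 0, and -0.19 for 10 class II genes, of which 4 were above 0. The median over all 17167 genes with that count was -0.00. Spike-in scaling lowers the log2 ratio of every gene by 0.46, so the typical gene also lies below 0 there. With spike-in scaling the class I median was 0.67 and the class II median -0.65, with 17 of 22 class I genes above 0 and all 10 class II genes below 0. Members over 2-fold higher in replicate 2 were then 6 (B2m, Cd1d1, H2-D1, H2-Q6, H2-Q7 and H2-T24), where 4.88% of all genes were. With total-count scaling they were 5, those named without H2-Q7, where 4.4% of all genes were.

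**Figure D3:**
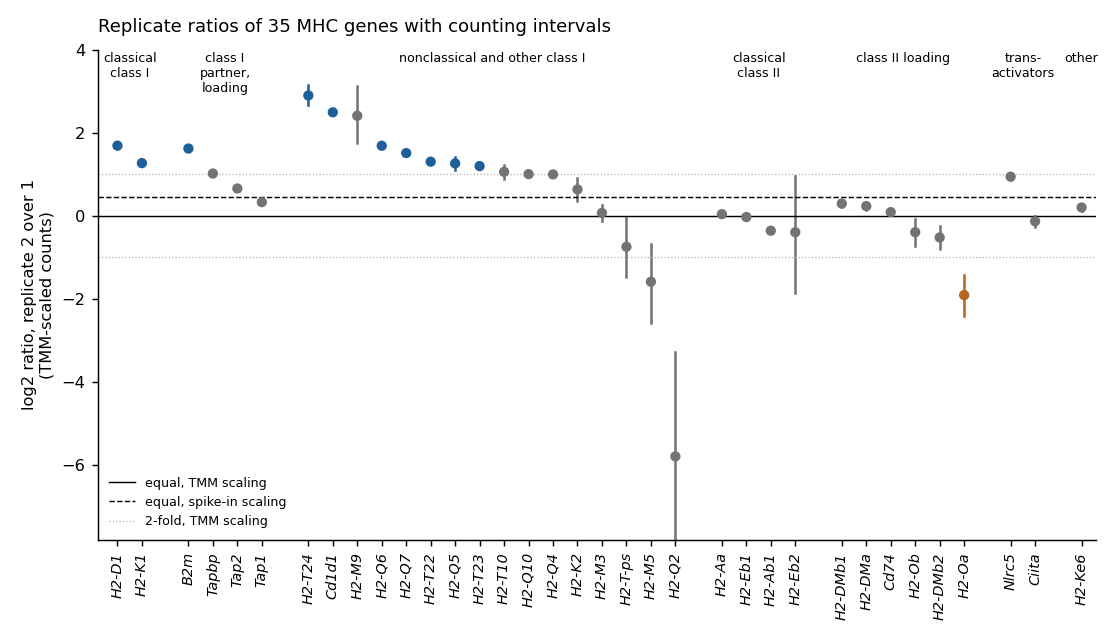
log2 ratio of TMM-scaled counts, replicate 2 over replicate 1, for the 35 members averaging at least 10 scaled counts, with exact 95% counting intervals; blue members were called over 2-fold higher in replicate 2, orange in replicate 1, and grey members were not called. The solid line marks equal scaled counts under TMM, the dashed line marks them under spike-in scaling and dotted lines mark 2-fold; class I genes lie mostly above the dashed line, class II genes all lie below it, and the interval of H2-Q2, with 1 count in replicate 2, runs below the axis.

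Ratios between genes inside a library need no scaling between libraries. B2m was 0.794 times Cd74 in replicate 1 and 2.32 times in replicate 2. H2-K1 was 0.975 and 2.96 times H2-Ab1, and H2-D1 was 0.943 and 3.86 times. The sum of H2-K1 and H2-D1 was 1.02 times that of H2-Aa, H2-Ab1 and H2-Eb1 in replicate 1 and 3.20 times in replicate 2. Ratios inside a class moved less in most of the pairs chosen. All class I heavy chains with an H2 symbol summed to 2.30 and 2.02 times B2m. H2-K1 with H2-D1 made up 78.0% and 80.6% of those chains. Pairs not chosen can move more, since the scaled ratio was 1.05 for H2-M3 and 7.47 for H2-T24, both class I genes. The sum of H2-K1 and H2-D1 over that of H2-Aa, H2-Ab1 and H2-Eb1 thus differed 3.135-fold between 2 libraries of a single group. Heavy chains over B2m in replicate 2 were 0.876 times their value in replicate 1.

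**Figure D4:**
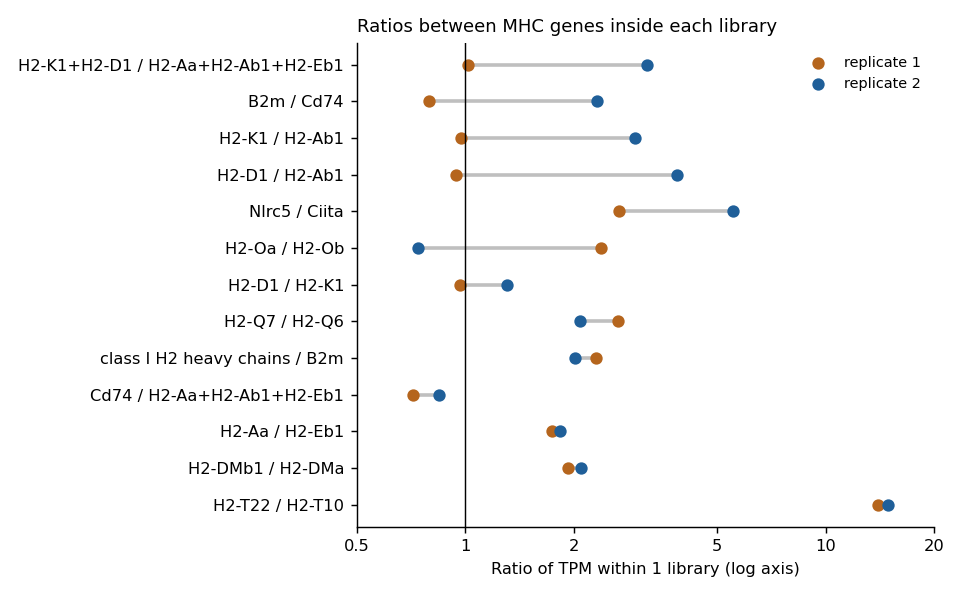
Ratio of TPM between MHC genes or sums of genes inside each library, on a log axis; orange is replicate 1, blue is replicate 2 and the vertical line marks equal TPM. Class I over class II ratios are near 1 in replicate 1 and between 2.32 and 3.86 in replicate 2. The chosen ratios within a class lie closer together except for H2-Oa over H2-Ob.

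Markers of the cells that could carry these transcripts also differed. The 10 white adipocyte markers had a median log2 ratio of 2.34 and the 8 endothelial markers one of 1.38 on the TMM scale. Of them 10 and 5 were over 2-fold higher in replicate 2, where 10.6% of all genes were. With total-count scaling these medians were 1.82 and 0.87, and 9 and 0 were over 2-fold higher, all adipocyte markers but Cfd and no endothelial one. With spike-in scaling 9 and 2 were. Endothelial markers summed to 782 and 1311 TPM, with Cdh5, the junction protein VE-cadherin, at 110 and 192. The class I median of 1.13 lay on the same side. The 11 macrophage markers had a median of -0.04, with 1494 and 1051 TPM in sum, and the 10 dendritic cell markers one of 0.00, with 60.9 and 40.5 TPM. Of these 2 lists 1 macrophage marker, Fcgr1, was called, higher in replicate 1, where 12.5% of all genes were. With total-count or spike-in scaling 2 macrophage markers (Cd14 and Fcgr1) and 3 dendritic cell markers (Cd83, Flt3 and Xcr1) were called that way. Of all genes 22.3% and 20.9% were. On the TMM scale the class II median of -0.19 was near the medians of both lists. With spike-in scaling the macrophage and dendritic cell medians were -0.49 and -0.45, and the class II median -0.65.

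B cell markers were low and did not share the class II median. Over 7 with at least 10 scaled counts their median log2 ratio was 1.39, with 6 above 0, although their summed TPM was 10.1 and 7.92. Of the 9, 2 were detected (Cd79a and Cd79b), while Ms4a1 had 9 and 29 counts, Pax5 8 and 7, and Cr2 1 and 3. Only 3 B cell markers had enough counts for a call, and none was called on the TMM scale. The 9 T cell markers had a median log2 ratio of 0.62, and 3 of them were detected. Only 2 had enough counts for a call. Of these Lck, a T cell kinase, was called, 2.66-fold higher in replicate 1, where 12.5% of all genes were. With total-count or spike-in scaling the T cell marker Cd4 and the B cell marker Cd22 were also called higher in replicate 1. Of all genes 22.3% and 20.9% were. Epithelial markers had a median log2 ratio of -6.88. The part of these cell types in the class I and class II values was not tested. In bulk tissue, a change in the number of cells of a type and a change in RNA per cell cannot be told apart.

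**Figure D5:**
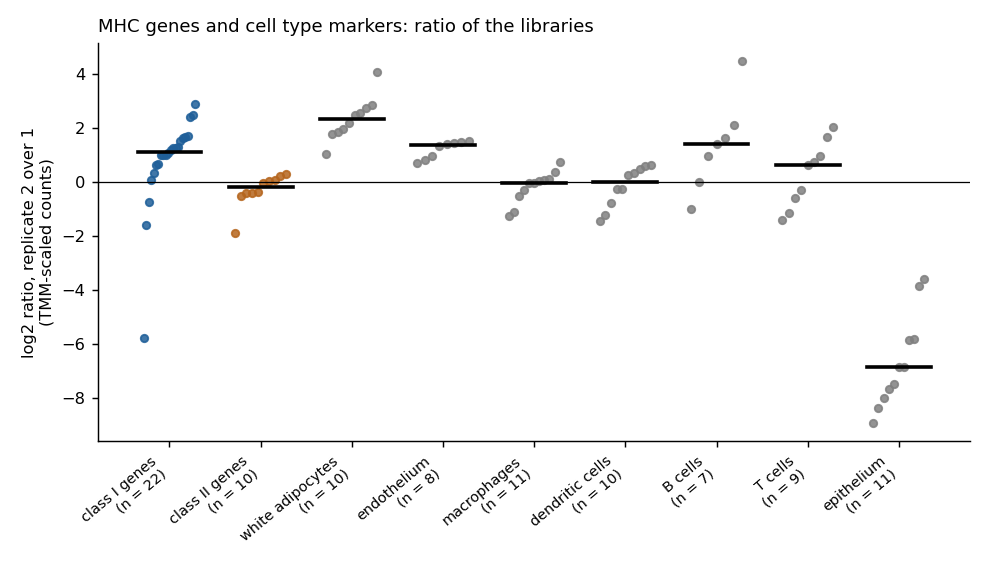
log2 ratio of TMM-scaled counts, replicate 2 over replicate 1, of single genes (points) and their median (bar) for class I genes, class II genes and 7 lists of cell type markers, over genes averaging at least 10 scaled counts. The medians of class I genes, adipocyte, endothelial, B cell and T cell markers lie above 0, those of class II genes, macrophage and dendritic cell markers near 0 on this scale, and that of epithelial markers far below; 3 of the 22 class I genes (H2-Q2, H2-M5 and H2-T-ps) lie below 0, and H2-Oa is the lowest class II gene at -1.91; spike-in scaling lowers all points by 0.46, which puts all 10 class II genes below 0.

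Other genes of antigen processing and of MHC regulation were taken from 2 lists. Of 21 processing genes, 19 had enough counts, and 3 were over 2-fold higher in replicate 2, against 10.6% of all genes, and none in replicate 1. That share is near the background. Their median log2 ratio was 0.41, and -0.044 with spike-in scaling. There 2 were called in each direction, against 4.88% of all genes higher in replicate 2 and 20.9% in replicate 1. The 3 called on the TMM scale were Ctsl, a lysosomal protease, with 95.3 and 246 TPM, and the class I-like genes Hfe and Fcgrt. The immunoproteasome subunits Psmb8, Psmb9 and Psmb10, which cut peptides for class I, had scaled ratios of 1.10 (1.04 to 1.15), 1.57 (1.49 to 1.67) and 1.42 (1.35 to 1.49). Ctss, the protease that trims the invariant chain, had 52.3 and 19.7 TPM and a ratio of 0.587 (0.544 to 0.633). With total-count or spike-in scaling Ctss was called over 2-fold higher in replicate 1.

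Of 16 regulators, 15 had enough counts, with 1 over 2-fold higher in each direction, below the 10.6% and 12.5% of all genes, and a median log2 ratio of -0.03. The interferon gamma receptor chain Ifngr1 was higher in replicate 2, with 39.0 and 63.5 TPM and a ratio of 2.42 (2.31 to 2.53), a call that total-count and spike-in scaling lost. Socs1, an inhibitor of interferon signalling, was higher in replicate 1, with 32.5 and 3.64 TPM, 5.74-fold. Irf1, which acts downstream of interferon, had a ratio of 1.35 (1.296 to 1.42), and the interferon gamma gene Ifng had 6 and 1 counts. Rfx5, which binds the X box of MHC promoters, had 25.2 and 8.74 TPM and a ratio of 0.572 (0.531 to 0.615). With total-count or spike-in scaling Rfx5 was called over 2-fold higher in replicate 1, as 22.3% and 20.9% of all genes were.

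MHC promoters carry an X box and, downstream, a Y box read by the factor NF-Y as ATTGG or its complement. RefSeq promoters (GRCm38.p6, 250 bases before to 50 after the start) were found for 35 of the 53 members. Those of H2-Ab1, Ciita, Nlrc5, Tap2, Cd1d1 and Cd74 were among the 18 not matched. ATTGG on either strand stood in the promoters of 32 of these 35 members, against 37.4% of all 32851 promoters, and TGACG on either strand in 14, against 20.8%. A pair of GAAA words with 1 or 2 bases between them, an interferon response element core, stood on either strand in 3, B2m, H2-T22 and H2-T23, against 6.27% of all promoters.

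A spaced pair, TGANG followed after 15 to 25 bases by ATTGG on the gene's strand, was defined after these promoters had been seen. It stood in 13 of the 35 members, among them 12 of the 20 matched and detected members. Of all promoters, 1.61% held it on the gene's strand and 2.79% on either strand. The lines below show it in 4 class I and 2 class II promoters of genes described above. Capitals mark the TGANG and ATTGG letters.
H2-K1 (chr17:34000349-34000403, minus strand): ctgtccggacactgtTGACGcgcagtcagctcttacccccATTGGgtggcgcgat
H2-Q6 (chr17:35424729-35424785, plus strand): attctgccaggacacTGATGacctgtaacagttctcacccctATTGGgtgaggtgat
H2-Q7 (chr17:35439073-35439129, plus strand): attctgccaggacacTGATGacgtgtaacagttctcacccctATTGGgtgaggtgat
B2m (chr2:122147594-122147648, plus strand): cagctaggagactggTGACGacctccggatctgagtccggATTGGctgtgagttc
H2-Aa (chr17:34287857-34287912, minus strand): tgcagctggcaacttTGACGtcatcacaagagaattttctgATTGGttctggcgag
H2-Eb1 (chr17:34305766-34305822, plus strand): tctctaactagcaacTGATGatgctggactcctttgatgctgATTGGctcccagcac
The pair stood in promoters of both classes, with 20 to 22 bases between TGANG and ATTGG in these 6. H2-Q10 did not hold these letters in its window. The pair was also absent from other matched and detected members, such as H2-T22, H2-T23, Tap1, Tapbp, H2-DMa and H2-Oa. A match is a description of the letters and not a measured binding site.

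The transcripts behind the gene values differed in kind. Of the 30 detected members, 24 were led in TPM by a protein-coding transcript. In 19 the leading transcript was above 75% of the gene's TPM in both libraries. H2-D1 was led by H2-D1-202 with 98.1% and 98.2%, H2-K1 by H2-K1-201 with 87.5% and 91.6%, and H2-Ab1 by H2-Ab1-201 with 97.5% and 96.3%. Cd74-201 took 81.5% and 77.4%.

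For 6 members the leading transcript is not annotated as protein coding. Tap2 was led by Tap2-202, a retained-intron transcript, with 81.7% and 82.2%, so its gene TPM of 48.8 and 48.7 is mostly not that of a coding transcript. H2-Q5-203, also a retained intron, took 72.6% and 75.3%, H2-T10-203 took 62.8% and 44.7%, and the processed transcript H2-DMb1-203 took 52.5% and 58.1%. Cd1d1 was led by the coding transcript Cd1d1-201 in replicate 1 and by the retained intron Cd1d1-205, at 42.5% and 45.9%, over both. These shares are of TPM, which is per length. By counts the longer coding Cd1d1-201 led, with 4012 and 16712 against 1040 and 4812 for Cd1d1-205. The coding H2-DMb1-201 led likewise, with 1531 and 1313 counts against 678 and 726 for H2-DMb1-203. Tap2-202, H2-Q5-203 and H2-T10-203 led by counts too. H2-K2 has a single transcript, of a pseudogene.

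The leader was the same in both libraries for 29 of the 30. The share of at least 1 transcript moved by over 10 percentage points in 4 members: H2-T10 (20.1), H2-Ob (16.2), H2-Q7 (10.9) and H2-Ke6 (10.6). The leading transcript H2-Q7-204 took 43.8% in replicate 1 and 33.0% in replicate 2. H2-T10 and H2-Ke6 share many windows with other genes, and H2-Ob rests on 222 and 127 counts. Retained-intron and coding transcripts share exons, so their shares rest on the deposited model's division of reads.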

How the data were processed

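Both libraries were quantified by the authors against mm10 transcripts with GENCODE M4, per the notes deposited beside the tables. No source used here names the counting program; the columns are those RSEM writes. The deposited expected counts divide ambiguous reads among features. Deposited TPM and FPKM values are relative to effective length and library size, spike-ins included. The deposited percent of each transcript is its share of the gene's TPM. Gene and transcript names are from GENCODE M21 (GRCm38, which is mm10), and 42462 of 43346 genes had a symbol. Tables on mm9 were not used here.

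Expected counts of annotated genes were rounded and scaled by TMM (edgeR 4.0.16, R 4.3.3). Each ratio divides replicate 2 by replicate 1. Its exact 95% interval (Clopper-Pearson) treats the 2 counts as a binomial split and, like the floor of 3 counts, covers counting error alone. A call required at least 100 scaled counts on average and an interval entirely beyond 2-fold; medians required 10. The ratio code was tested on simulated data. Identity was computed with Biopython 1.88 by global alignment. No p-values were computed, since each side is 1 library. The members and lists were chosen with earlier results of these data known. H2-K2 and H2-Pa were added to their role groups later, and H2-L was not found. Every member is accounted for, those with a mean TPM of at least 1 by name and value. Of other lists the 4 highest genes and those over 2-fold apart could be named; any other gene named, such as Rfx5, Ctss or Ms4a1, was chosen after its values were seen. Alternatives covered DESeq2 1.42.0 size factors, other scalings, filters, pseudocounts and units; scalings of the other lists were added after the data were seen.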

Additional observations from a re-analysis of the deposited data

How the results depend on the processing

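The number of members over 2-fold apart was 11 with TMM and with DESeq2 size factors, posterior mean counts, or the posterior SD added to the interval. It was 6 with total-count scaling (26.7% of all genes), 7 with spike-in scaling (25.8%), 6 and 5 with deposited TPM at pseudocounts of 0.1 and 1 (35.5% and 29.9%), and 13 and 10 where the mean scaled count had to reach 1 or 500 (20.8% and 20.3%). Under TMM 11 of 30 members tested were called, a larger share than the 23.1% of all genes. With total-count scaling, spike-in scaling or TPM the members' share was below that of all genes. For calls higher in replicate 2 alone, the members' share stayed above it in each of these settings. H2-Oa, called with 215 and 43 counts, was lost at 500. The median log2 ratio of members, 0.64, was 0.12 with total-count scaling, 0.18 with spike-in scaling, 0.48 and 1.01 at count minimums of 1 and 500, and -0.00089 and -0.00087 with TPM. The class I median of 1.13 kept its direction in these settings: 0.62, 0.67, 1.06 and 1.27 under the same settings, and 0.60 and 0.56 with TPM. The class II median of -0.19 was -0.71 with total-count scaling, -0.65 with spike-in scaling and -0.64 and -0.59 with TPM, and it turned to 0.067 at a minimum of 500 counts, where fewer genes were left. The scalings shift every gene by the same amount; which of them is right was not tested, nor was the cause of the difference between TPM and scaled counts. Detected members ranged from 24 (TPM of at least 5) to 32, and from 31 to 32 with 1 library left out. Members held 0.838% of TPM on average, from 0.737% to 0.939% with 1 library left out. The replicate ratios cannot be computed with a library left out. No paired analysis was possible because there is a single group. Depth limits the lowest detected members, such as H2-Oa with 215 and 43 counts.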

Other observations

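Genes outside the MHC region that encode class I-like chains were also measured. Hfe, whose product binds B2m and regulates iron uptake, had 47.1 TPM in replicate 1 and 138 in replicate 2, with a TMM-scaled ratio of 4.56 (4.38 to 4.76). Fcgrt, the neonatal Fc receptor heavy chain that protects IgG and albumin from breakdown, had 149 and 215 TPM and a ratio of 2.25 (2.19 to 2.31). Both were over 2-fold higher in replicate 2 on this scale, like H2-D1, B2m and Cd1d1, where 10.6% of all genes were. With total-count or spike-in scaling Hfe was still called, as H2-D1, B2m and Cd1d1 were, and Fcgrt was not. Of all genes 4.4% and 4.88% were called in that direction there. Mr1, which presents vitamin B metabolites, had 13.6 and 12.6 TPM and a ratio of 1.45 (1.34 to 1.57). Procr, the endothelial protein C receptor, had 16.6 and 14.5 TPM and a ratio of 1.25 (1.12 to 1.39), and Azgp1 had 9 and 8 counts. With total-count or spike-in scaling every ratio here is lower, by 0.51 or 0.46 on the log2 scale.

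The genes that fold class I heavy chains in the endoplasmic reticulum did not share the ratio of the heavy chains. Calr had 280.4 and 158 TPM and a scaled ratio of 0.896 (0.877 to 0.916), Canx had 58.9 and 35.7 TPM and 0.955 (0.923 to 0.988), and Pdia3 had 513 and 122 TPM and 0.592 (0.572 to 0.613). None was over 2-fold apart on this scale. With total-count or spike-in scaling Pdia3 was called over 2-fold higher in replicate 1, as 22.3% and 20.9% of all genes were. Calr and Canx were not called there either. Calr, Canx and Pdia3 are general chaperones that serve many secreted proteins.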
